A study of Mus musculus with 20 samples.

Results

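The gene described here is Cog3, whose transcript carries an A-to-I editing site that turns an isoleucine codon into a valine codon. All rows of the deposited tables with the gene name Cog3 were taken, and a site was kept if it had at least 50 reads in both libraries of at least 1 group. Of 6 listed Cog3 sites 4 met this rule, each of them in all 10 groups. Over the whole series 9065 of 48425 listed sites met it. The other 2 Cog3 sites are intronic and had 0 reads in every library.

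Adenosine-to-inosine editing is performed on double-stranded RNA by ADAR1 and by ADAR2, the product of Adarb1, and inosine is read as guanosine by the ribosome and by sequencing. ADAR1 is made as p110, which is always present, and as p150, which interferon induces. STAT2 carries type I interferon signals to the genes they switch on. Cog3 encodes a subunit of the conserved oligomeric Golgi complex, which tethers vesicles in retrograde traffic between Golgi cisternae. When such an adenosine lies in a coding exon, editing can change the encoded amino acid, which is called recoding.

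The study read editing levels in multiplex RT-PCR amplicons from mouse embryonic fibroblasts, which are connective tissue cells grown from embryos. The lines used here are labelled ADAR1_NULL (no ADAR1), P150_KO (no p150 form of ADAR1), ADAR2_NULL (no ADAR2), STAT2_NULL (no STAT2) and ADAR1_WT, the last called wild type below. Each was sampled with interferon and untreated in 2 libraries per condition, 20 libraries in all. Which interferon was used, at what dose and for how long is not stated in the labels, and a line of the series' design beyond these 5 was not analysed here. Each genotype is 1 line, so genotype and any other difference between the lines cannot be told apart, and no label names the wild-type line as a matched control. No label says whether both libraries of a group are separate cultures; p-values then reflect only the spread between these samples, which may be technical. The assay gives no expression level, so the loss of the targeted genes and the identity of the cells could not be checked: 3 of 10 fibroblast marker genes have listed sites, none with reads.

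The Cog3 sites lie on mm9 chromosome 14, minus strand. The recoding site is at position 76119526 and is annotated as an isoleucine-to-valine change (the Ile site below). Counted along the transcript, a second adenosine lies 1 base 5′ of it, at 76119527, and is annotated as a synonymous change in a glutamate codon (the Glu site). A site at 76119531 lies 5 bases 5′ of the Ile site and one at 76119510 lies 16 bases 3′ of it, and both are annotated as lysine-to-arginine changes. With the frame counted from the first base of the isoleucine codon, the Glu site is position 3 of the codon just before, the 5′ lysine site is position 2 of the codon 2 before, and the 3′ lysine site is position 2 of the codon 5 after. No sequence is shown around these sites, since no mm9 sequence was used here.

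The Ile site was read 14372 times in all, 568 to 937 times per library, and total coverage over all sites was 4389326 to 5559674 reads per library. The 3 other sites had 568 to 935 reads per library. Exact (Clopper-Pearson) 95% binomial intervals on the Ile level were 3.68 to 8.12 percentage points wide. They cover counting error only, since amplicon reads without molecular identifiers are not independent molecules.

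The Ile site was edited in every library, at 7.73% to 92.3% of reads with a median of 61.5%. In ADAR2-null cells the level was 13.5% and 12.03% with interferon and 7.73% and 8.13% untreated. In ADAR1-null cells it was 29.4% and 33.2% with interferon and 50.4% and 51.7% untreated. These lines held the lowest levels, and within each the interferon and untreated libraries did not overlap. In p150-knockout cells the level was 67.4% and 60.2% with interferon and 67.6% and 62.9% untreated. In STAT2-null cells it was 59.1% and 74.0% with interferon and 72.7% and 66.1% untreated. In wild-type cells it was 86.2% and 85.0% with interferon and 92.3% and 90.2% untreated. Every library of the knockout lines lay below all 4 wild-type libraries.

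**Figure D1:**
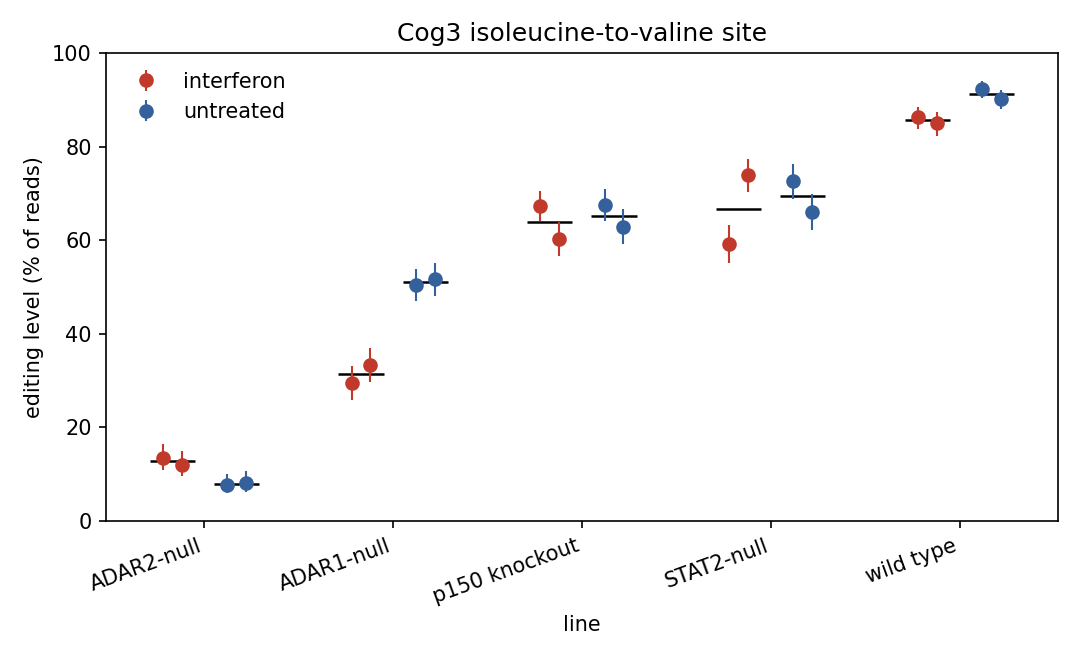
Editing level at the Cog3 isoleucine-to-valine site (vertical axis, % of reads) by line (horizontal axis), with interferon in red and untreated in blue. Points are libraries with exact 95% binomial intervals and black bars are group means; ADAR2-null libraries sit between 7.73% and 13.5% and wild-type libraries between 85.0% and 92.3%.

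In the order of group means, untreated wild-type cells were highest at 91.2% ± 1.47 (SD, n = 2), followed by interferon-treated wild-type cells at 85.6% ± 0.8997. Next came untreated STAT2-null cells at 69.4% ± 4.66, treated STAT2-null cells at 66.6% ± 10.5, untreated p150-knockout cells at 65.2% ± 3.30 and treated p150-knockout cells at 63.8% ± 5.09. Each of these 4 groups overlapped its neighbours among the 4, so their order is not resolved beyond the replicate spread. Untreated ADAR1-null cells followed at 51.0% ± 0.919, treated ADAR1-null cells at 31.3% ± 2.71, treated ADAR2-null cells at 12.8% ± 1.04 and untreated ADAR2-null cells at 7.93% ± 0.286. No other neighbours in the order overlapped. The libraries of a group differed beyond read counting in 3 of 10 groups (Fisher's exact test, unadjusted p under 0.05), both STAT2-null groups and treated p150-knockout cells. The largest such gap was in treated STAT2-null cells, with 59.1% and 74.0% (exact p = 4.1e-08).

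The level is high for this series. Among the 604 sites with at least 50 reads in all libraries and a mean level of at least 1%, the Ile site ranked 1 by level in untreated ADAR1-null cells and in both p150-knockout groups. It ranked 2 in treated ADAR1-null cells, in both STAT2-null groups and in untreated wild-type cells, and 3 in treated wild-type cells. In ADAR2-null cells it ranked 215 with interferon and 17 untreated. The median level over these sites was 7.81% in treated and 0.551% in untreated ADAR2-null cells.

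The first comparison asked which enzyme or pathway the level at the Ile site goes with. Taking both treatments together, ADAR2-null cells held 10.3% ± 2.86 and wild-type cells 88.4% ± 3.39 (SD, n = 4 each), a difference of -78.07 points (SE 2.22). ADAR1-null cells held 41.2% ± 11.5, a difference of -47.23 points (SE 6.00) from the same wild-type libraries. The p150-knockout cells held 64.5% ± 3.60, a difference of -23.91 points (SE 2.47). The STAT2-null level was 68.0% ± 6.83 and differed by -20.43 points (SE 3.81). In each line the 4 libraries lay below the 4 of wild type. Each exact two-sided permutation test over 70 arrangements gave p = 0.0286, the smallest it can give. After Benjamini-Hochberg adjustment over 5 tests this p was 0.0357. Line labels were exchanged across treatments and not within them, so these tests do not hold treatment fixed. The SDs and SEs over both treatments likewise include any treatment difference. With labels exchanged only between libraries of the same replicate number, the adjusted p was 0.0694 for each line, which is the smallest that design can give.

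Within a treatment, 2 libraries against 2 cannot go below an exact p of 0.333, so edited and unedited reads were modelled over all sites with edgeR's quasi-likelihood test. Tests covered sites with 50 or more reads in each library compared and an average level there of 1% or more, and a call means a Benjamini-Hochberg adjusted p under 0.05. Effects are log2 odds ratios, the odds being edited over unedited reads. The Ile site was tested in all 21 comparisons. It was called in 5 of the 8 comparisons of a knockout line with wild type, each time lower in the knockout line.

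In untreated ADAR2-null cells the log2 odds ratio against wild type was -6.92 (SE 0.83, edgeR adjusted p = 6.5e-05), where 13.6% of all sites tested were called. This was the greatest fall in level and the smallest p among the 588 sites tested. With interferon it was -5.35 (SE 0.98, edgeR adjusted p = 0.00332) against treated wild-type cells, where 2% of sites were called, and the fall in level ranked 2 of 1348. The treated call was lost without the first treated ADAR2-null library (edgeR adjusted p = 0.0721) or without the second (0.0904). Both calls were also lost when the 2 groups were fitted alone, with adjusted p-values of 0.0862 untreated and 0.19 with interferon.

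In untreated ADAR1-null cells the log2 odds ratio against wild type was -3.32 (SE 0.69, edgeR adjusted p = 0.000999), where 49.2% of sites tested were called. With interferon it was -3.71 (SE 0.89, edgeR adjusted p = 0.00133), where 69.5% of sites were called. A call is therefore common in this line, and the size of the fall in level ranked 5 of 386 untreated and 62 of 1159 with interferon.

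In untreated p150-knockout cells the log2 odds ratio was -2.48 (SE 0.72, edgeR adjusted p = 0.0177), where 33.1% of sites tested were called. This call was lost without the first untreated wild-type library (edgeR adjusted p = 0.0583), without the first p150-knockout library (0.0814) or without the second (0.1). It was also lost with no minimum level (0.454) and with the 2 groups fitted alone (0.101). With interferon the ratio was -1.75 (SE 0.83, edgeR adjusted p = 0.0681) and did not pass, where 64.5% of sites were called. In STAT2-null cells the ratio was -2.20 (SE 0.75, edgeR adjusted p = 0.152) untreated and -1.55 (SE 0.89, edgeR adjusted p = 0.155) with interferon. Neither passed, where 2.95% and 40.9% of sites were called.

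**Figure D2:**
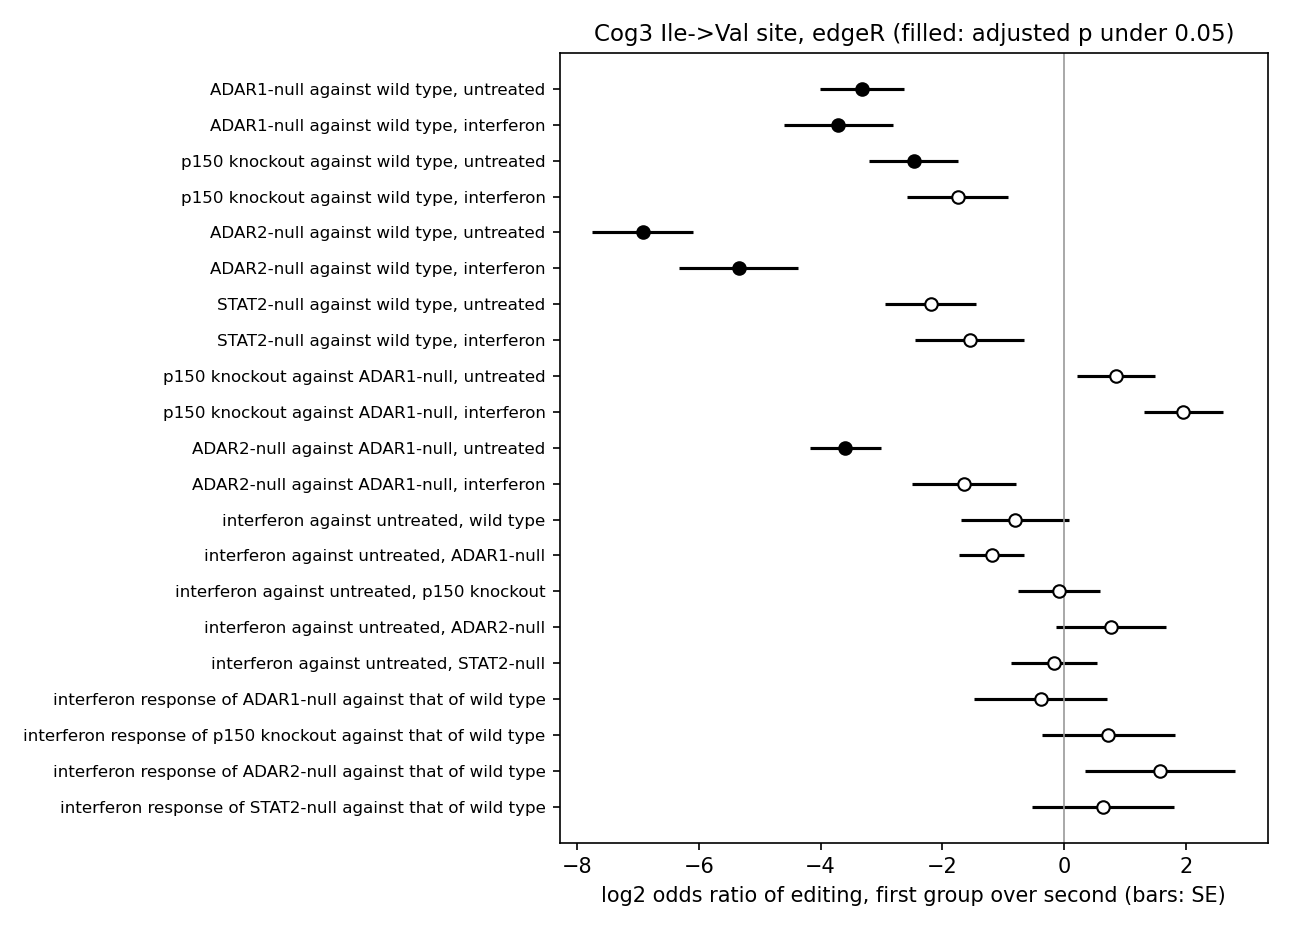
Log2 odds ratios of editing at the Cog3 isoleucine-to-valine site (horizontal axis, points with SE bars) for the 21 edgeR comparisons (vertical axis), filled where the adjusted p was under 0.05. The ratio is furthest below 0 for untreated ADAR2-null cells against wild type, at -6.92. No comparison of interferon with untreated cells is filled, nor any comparison of interferon responses between lines.

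Setting the lines that lack an enzyme against each other, untreated ADAR2-null cells were lower than untreated ADAR1-null cells at the Ile site by a log2 odds ratio of -3.60 (SE 0.58, edgeR adjusted p = 0.000292). The difference in level was -43.12 points (SE 0.680), the greatest fall among 236 sites tested. In that comparison 36.4% of sites were called, and 74 of the 86 called sites were higher in ADAR2-null cells. With the 2 groups fitted alone the adjusted p was 0.0565. With interferon the ratio was -1.64 (SE 0.86, edgeR adjusted p = 0.0874), a difference of -18.56 points that did not pass, where 68.8% of sites were called.

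The p150-knockout cells, labelled as lacking the p150 form, were set against the ADAR1-null cells. The log2 odds ratio at the Ile site was 0.85 (SE 0.64, edgeR adjusted p = 0.462) untreated and 1.96 (SE 0.65, edgeR adjusted p = 0.0858) with interferon. Neither passed, where 11.8% and 7.11% of sites were called. The differences in level were 14.2 points (SE 2.42) and 32.5 points (SE 4.08), and the libraries did not overlap in either. The treated ratio passed without the second treated p150-knockout library (edgeR adjusted p = 0.0173), with the replicate block (0.0382) and with limma (0.0487).

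Interferon was asked about within each line. At the Ile site the level with interferon differed from the untreated level by 4.83 points (SE 0.760) in ADAR2-null cells, by -19.73 points (SE 2.02) in ADAR1-null cells and by -5.61 points (SE 1.22) in wild-type cells. In these lines the 2 treatments did not overlap. The difference was -1.43 points (SE 4.29) in p150-knockout cells and -2.85 points (SE 8.12) in STAT2-null cells, where the treatments overlapped. Neither sign was stable. Without the second treated p150-knockout library the difference was 2.16 points, and without the first untreated one 0.8996. Without the first treated STAT2-null library it was 4.57 points, and without the first untreated one 0.442. None of the 5 differences passed in edgeR, with adjusted p-values of 0.344 in ADAR1-null cells, 0.446 in wild type, 0.468 in ADAR2-null, 0.962 in p150-knockout and 0.999 in STAT2-null cells. The ADAR1-null difference alone had an unadjusted edgeR p under 0.05 (0.0395), and it was the greatest fall among 114 sites tested.

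Over all lines, the mean level was 52.0% with interferon and 57.0% untreated (n = 10 each), a difference of -4.96 points. An exact permutation test within lines, over 7776 arrangements, gave p = 0.097 (0.097 adjusted). Without the second treated STAT2-null library the adjusted p was 0.0437 and the difference -6.08 points. In the same comparison within wild-type cells 41% of sites were called, 494 higher and 8 lower with interferon, and the median difference was 5.27 points over the 1223 sites tested. In ADAR2-null cells 52.3% of sites were called and the median difference was 4.78 points. In p150-knockout cells 1.65% were called, and in ADAR1-null and STAT2-null cells 0%, with 16 and 19 sites at an unadjusted edgeR p under 0.05 and 0 called by limma in either. The Ile site's interferon difference was not called different from that of wild type in any knockout line. The log2 odds ratios of the responses were -0.38 (SE 1.09) for ADAR1-null, 0.72 (SE 1.09) for p150-knockout, 1.57 (SE 1.23) for ADAR2-null and 0.64 (SE 1.17) for STAT2-null cells, with edgeR adjusted p-values of 0.651 to 0.922. Of all sites, 12.3%, 17.2%, 0.175% and 13.8% were called in these comparisons, in the same order of lines.

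The Glu site, the adenosine just 5′ of the Ile site, was read at a lower level in every library. In ADAR2-null cells it was edited in 0.338% and 0.331% of reads with interferon and in 0.428% and 1.46% untreated. In ADAR1-null cells it was edited in 1.94% and 1.59% of reads with interferon and in 8.68% and 6.68% untreated. In p150-knockout cells the level was 0.228% and 3.87% with interferon and 4.17% and 2.83% untreated. The treated p150-knockout libraries stood apart from each other beyond read counting (Fisher's exact p = 3.55e-08). In STAT2-null cells the level was 3.61% and 4.56% with interferon and 7.38% and 4.42% untreated. In wild-type cells it was 14.2% and 10.4% with interferon and 25.6% and 18.6% untreated. All wild-type libraries were higher than all libraries of the knockout lines.

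**Figure D3:**
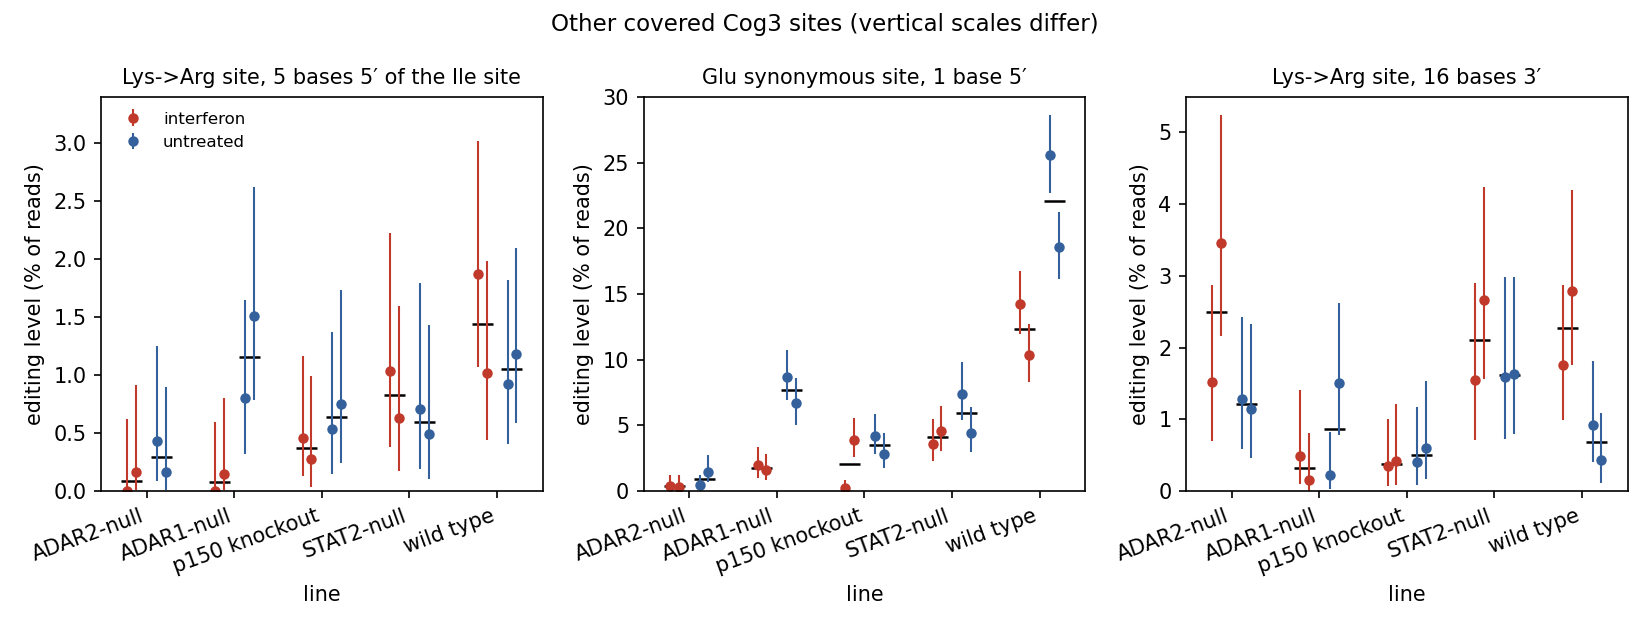
Editing level (vertical axes, % of reads, scales differ) at the 3 other covered Cog3 sites by line (horizontal axes), with interferon in red and untreated in blue; points are libraries with exact 95% binomial intervals and bars are group means. The Glu site reaches 25.6% in wild-type cells, while the 2 lysine sites stay at or below 3.46% in every library.

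At the Glu site the log2 odds ratio of untreated ADAR2-null cells against wild type was -4.99 (SE 1.10, edgeR adjusted p = 0.00876), and with interferon -5.29 (SE 1.26, edgeR adjusted p = 0.0267). For ADAR1-null cells it was -2.94 (SE 1.09, edgeR adjusted p = 0.0219) with interferon and -1.76 (SE 0.95, edgeR adjusted p = 0.121) untreated, which did not pass. For p150-knockout cells both treatments passed, at -2.97 (SE 0.998, edgeR adjusted p = 0.0336) untreated and -3.37 (SE 1.12, edgeR adjusted p = 0.0135) with interferon. For STAT2-null cells neither did, at -2.20 (SE 0.99, edgeR adjusted p = 0.291) untreated and -1.71 (SE 1.07, edgeR adjusted p = 0.193) with interferon. Untreated ADAR2-null cells were also lower than untreated ADAR1-null cells, at -3.22 (SE 0.98, edgeR adjusted p = 0.0187). With the compared groups fitted alone, all of these calls but that of treated ADAR1-null cells ended (edgeR adjusted p = 0.0756 to 0.19). With no minimum level, the calls of treated ADAR1-null (0.0593) and untreated p150-knockout cells (0.228) against wild type ended. So did that of ADAR2-null against ADAR1-null cells (0.221). Leaving out 1 library ended each of these 6 calls in at least 1 case. The untreated ADAR2-null call ended without the first ADAR2-null library (adjusted p = 0.0598), and the treated one without either ADAR2-null library (0.183 each). The treated ADAR1-null call ended without the first ADAR1-null library (0.0681), the second (0.0969) or the first wild-type library (0.0586). The untreated p150-knockout call ended without any of the 4 libraries, at 0.0972 and 0.149 without the first and the second p150-knockout library and 0.088 and 0.0559 without those of wild type. The treated p150-knockout call rests on the first library of that group, with an adjusted p of 0.177 without it and 0.00153 without the second. The call against ADAR1-null cells ended without the first ADAR2-null library (0.121) or the first ADAR1-null library (0.127). In the 4 lines tested, all but ADAR2-null, no interferon difference at the Glu site passed with all libraries (edgeR adjusted p = 0.344 to 0.999), the greatest in points being -9.79 (SE 3.99) in wild-type cells. In p150-knockout cells the interferon difference passed without the second treated library, at an edgeR adjusted p of 0.0132.

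The Glu level was also set against the Ile level. As a percentage of the Ile level in the same library, it averaged 2.63% in treated and 11.7% in untreated ADAR2-null cells, and 5.68% in treated and 15.1% in untreated ADAR1-null cells. It averaged 3.38% in treated and 5.33% in untreated p150-knockout cells, and 6.13% in treated and 8.42% in untreated STAT2-null cells. In wild-type cells it averaged 14.3% with interferon and 24.2% untreated. Some of these means rest on libraries far apart, 5.54% and 17.9% in untreated ADAR2-null cells and 0.339% and 6.42% in treated p150-knockout cells. The order of the untreated p150-knockout and ADAR1-null cells differed between the sites. At the Ile site untreated p150-knockout cells averaged 65.2% and untreated ADAR1-null cells 51.0%. At the Glu site they averaged 3.50% and ADAR1-null cells 7.68%, with no overlap at either site. Neither difference passed in edgeR, with adjusted p-values of 0.462 at the Ile site and 0.499 at the Glu site. With interferon the p150-knockout mean was the higher at both sites. At the Glu site it was 2.05%, beside 1.76% in ADAR1-null cells, and the libraries overlapped. The edgeR log2 odds ratio for this Glu comparison had the opposite sign, at -0.429 (SE 1.055, edgeR adjusted p = 0.859). Over the 10 group means the 2 sites had Pearson's r = 0.735, a description over groups whose reads share the same amplicons.

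**Figure D4:**
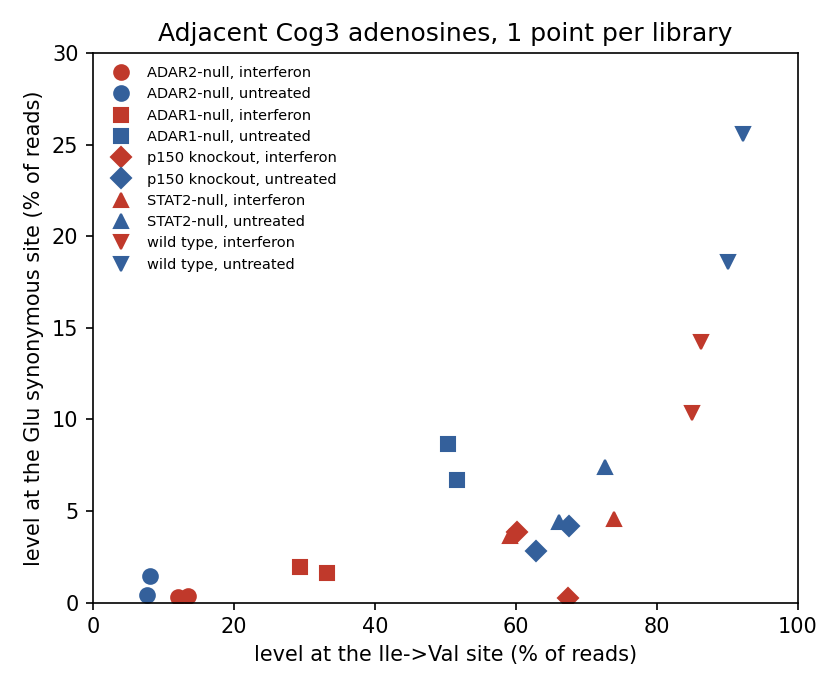
Level at the Glu synonymous site (vertical axis, % of reads) against level at the adjacent isoleucine-to-valine site (horizontal axis, % of reads), 1 point per library, with symbols for lines and red for interferon, blue for untreated. Wild-type libraries lie at the upper right, with Glu levels of 10.4% to 25.6%, and untreated ADAR1-null libraries lie above the p150-knockout libraries at a lower Ile level.

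The lysine sites carried little editing. The 3′ lysine site was read as edited in 0.145% to 3.46% of reads, with 9 of 20 libraries under 1%. It averaged 2.49% ± 1.37 (SD, n = 2) in treated ADAR2-null cells, 0.315% ± 0.240 in treated ADAR1-null cells, 0.379% ± 0.0514 in treated p150-knockout cells, 2.10% ± 0.797 in treated STAT2-null cells and 2.27% ± 0.731 in treated wild-type cells. Untreated wild-type cells averaged 0.676%, below the 0.869% of untreated ADAR1-null cells, whose libraries overlapped theirs. The untreated p150-knockout mean was 0.502%. Both lines fell below the 1% level filter against untreated wild type, so those differences were not tested. Untreated ADAR2-null against ADAR1-null cells was tested and not called (0.74, SE 0.88, edgeR adjusted p = 0.541). The site was tested in 13 comparisons. It was called lower in treated ADAR1-null cells than in wild type (-2.84, SE 1.15, edgeR adjusted p = 0.0335) and lower in treated p150-knockout cells (-2.54, SE 1.08, edgeR adjusted p = 0.0438). It was called higher in treated ADAR2-null than in treated ADAR1-null cells (2.93, SE 1.15, edgeR adjusted p = 0.0282). Against treated wild type, ADAR2-null cells differed by 0.09 (SE 1.11, edgeR adjusted p = 0.992). These calls rest on 4 edited reads in treated ADAR1-null and 6 in treated p150-knockout cells. For each call the lower group averaged under 1%, so the level filter was met only through the higher group. Each was lost with no minimum level (edgeR adjusted p = 0.191 to 0.218). With the compared groups alone, both calls against wild type were lost (0.07 for ADAR1-null and 0.0837 for p150-knockout cells). Each call was also lost without 1 library. The ADAR1-null call ended without the first ADAR1-null library (adjusted p = 0.0505) or the second (0.185). The p150-knockout call ended without the first p150-knockout library (0.15), the second (0.0988) or the first wild-type library (0.0523). The call between the null lines ended without the second ADAR1-null library (0.169).

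The 5′ lysine site was at 0% to 1.87%, with 15 of 20 libraries under 1% and 2 at 0. Treated ADAR2-null cells held 1 edited read in 1199, treated ADAR1-null cells 1 in 1312 and treated wild-type cells 24 in 1647. A count of 0, as in the first treated ADAR2-null library with 592 reads, allows a level of up to 0.507% if 3 edited reads are taken as the limit, and 0.621% by the exact 95% interval. The site passed the level filter in 3 comparisons and was called in none, with edgeR adjusted p-values of 0.542 to 0.925 and unadjusted ones of 0.477 to 0.918. They were untreated ADAR1-null and treated STAT2-null cells against wild type, and interferon in wild-type cells. Treated ADAR2-null and treated ADAR1-null cells against wild type fell below the level filter, so those differences were not tested.

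Genes whose best site was most like the Ile site were found by Pearson's r over the 10 group means, among the 604 sites. Among the first 5 were an unnamed noncoding transcript listed as uc012aji.1 (r = 0.854), Rpa1 in its 3′ UTR (r = 0.806), uc009qeo.1 in its 3′ UTR (r = 0.731) and Nsun5 in an intron (r = 0.677). Rpa1 encodes a subunit of the single-stranded DNA-binding replication protein A and Nsun5 an RNA methyltransferase. The median r over all 604 sites was 0.0817. No site reached 0.9. The likeness does not extend to every line or to the level. The highest group mean of the uc009qeo.1 site was 3.44%, in untreated wild-type cells. Nsun5 was also low in ADAR1-null cells, at 0.249% with interferon and 0.264% untreated. With interferon uc012aji.1 averaged 12.6% in p150-knockout and 14.0% in ADAR2-null cells. With Spearman's rho 4 of the first 5 genes stayed in the first 5, and likewise with at least 100 reads.

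Known recoding sites in other genes were set beside Cog3. The glutamine-to-arginine site of Flna, which encodes the actin-crosslinking protein filamin A, averaged 0.586% in untreated ADAR2-null and 9.03% in untreated wild-type cells (-4.05, SE 1.41, edgeR adjusted p = 0.0629). The other untreated knockout lines were also low, with 0.326% in ADAR1-null (edgeR adjusted p = 0.0119), 0.593% in p150-knockout (0.0363) and 0.988% in STAT2-null cells (0.244). The arginine-to-glycine site of Gria3, a glutamate receptor subunit, averaged 4.62% in untreated ADAR2-null and 33.3% in untreated wild-type cells (-3.97, SE 1.41, edgeR adjusted p = 0.0706). The untreated ADAR2-null libraries stood far apart, at 0.919% and 8.32%. In ADAR1-null cells the site averaged 0.169% with interferon (edgeR adjusted p = 0.000218 against wild type) and 1.61% untreated (0.00647). With interferon this Gria3 site averaged 0.345% in STAT2-null and 34.1% in wild-type cells (-7.23, SE 1.57, edgeR adjusted p = 0.00164).

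The Cog3 Ile site was lowest in ADAR2-null cells, which did not hold for all of these sites. Untreated, the Flna mean was lowest in ADAR1-null cells, where its libraries overlapped those of other knockout lines. With interferon the Flna mean was lowest in ADAR2-null cells, at 0.244%, where its libraries likewise overlapped those of other knockout lines. The untreated Gria3 mean was lowest in STAT2-null cells, at 0% (edgeR adjusted p = 0.0107 against wild type). The tyrosine-to-cysteine site of Blcap, a gene named for bladder cancer, was lowest in ADAR1-null cells. This Blcap site averaged 19.3% in untreated ADAR2-null and 14.8% in untreated wild-type cells (0.46, SE 0.59, edgeR adjusted p = 0.617). In ADAR1-null cells it averaged 0.174% with interferon and 0.284% untreated, and it was called lower than in wild type with edgeR adjusted p-values of 7.12e-08 and 2.36e-06. At the Ile site of Cog3, ADAR1-null cells held 31.3% and 51.0%. Across the list of other recoding genes linked to ADAR2, 3 of 14 tested sites were called in untreated ADAR2-null cells against wild type, all lower. Of all sites 13.6% were called there. The median difference was -3.54 points in this list and -2.3 points over all sites. An unadjusted edgeR p under 0.05 was held by 7 of these 14 sites and by 169 of all 588. Across the list linked to ADAR1 or to either enzyme, 0 of 6 were called by edgeR and 0 had an unadjusted p under 0.05, with a median difference of -2.41 points. In untreated ADAR1-null cells 6 of 8 and 3 of 4 sites of these lists were called, all lower, where 49.2% of all sites were called, 189 lower and 1 higher.

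**Figure D5:**
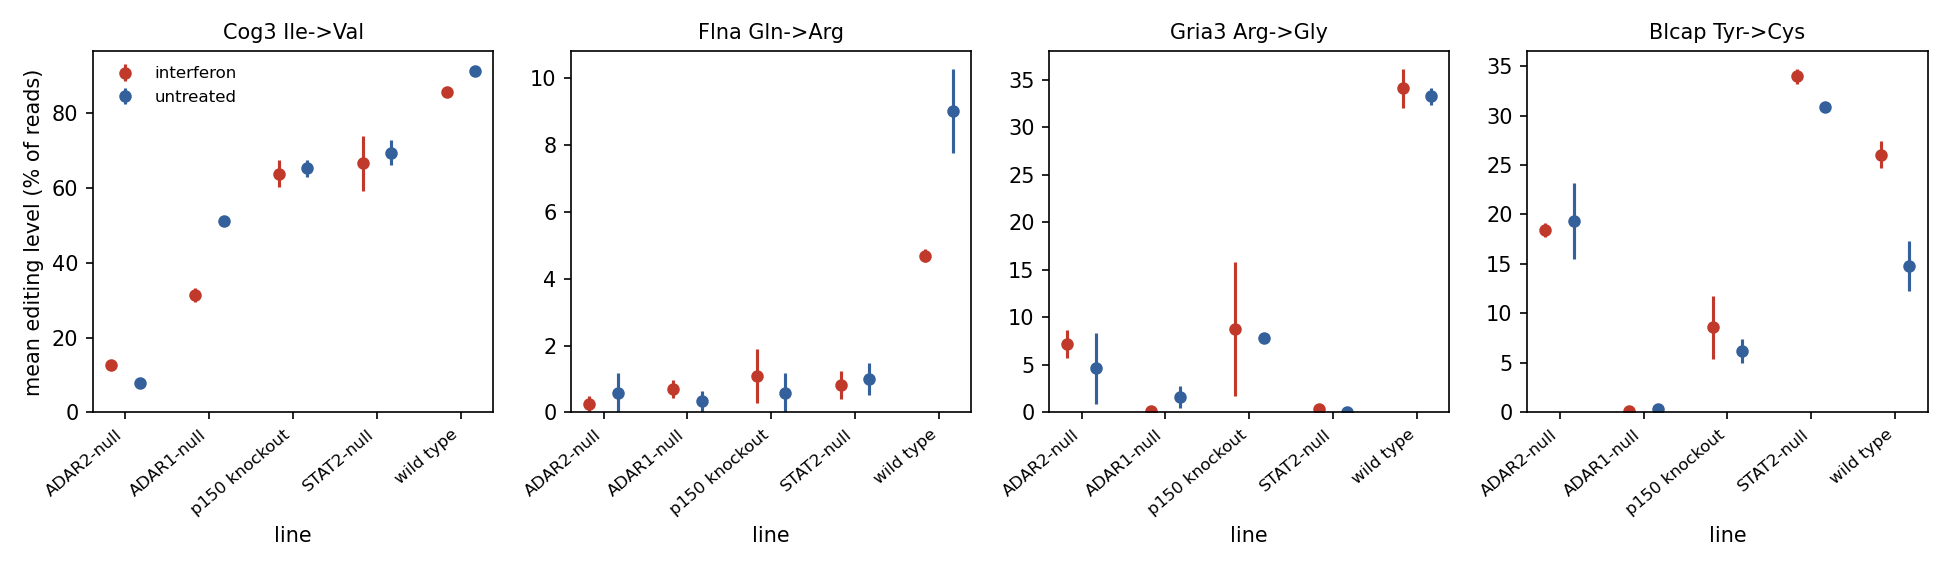
Mean editing level (vertical axes, % of reads, scales differ) by line (horizontal axes) at the Cog3 isoleucine-to-valine site and at recoding sites of Flna, Gria3 and Blcap, with interferon in red and untreated in blue; bars run from the lower to the higher library. Cog3 is lowest in ADAR2-null cells, whereas Blcap is lowest in ADAR1-null cells, at 0.174% and 0.284%.

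Other subunits of the same Golgi complex could not be set beside Cog3. Of the 7 genes Cog1, Cog2 and Cog4 to Cog8, 4 have listed sites, 24 in all, and 0 of these had reads. In a list of 41 Golgi traffic genes, 1 gene, Golga2, which encodes a cis-Golgi matrix protein, had sites meeting the coverage rule. Only 1 of these sites was tested in untreated ADAR2-null against wild-type cells. That site averaged 1.79% in untreated ADAR2-null and 1.15% in untreated wild-type cells, where the libraries were at 0% and 2.30%. It was not called (0.88, SE 1.70, edgeR adjusted p = 0.733).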

How the data were processed

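RNA editing was read in 20 libraries of 5 fibroblast lines. Per the labels' protocols, PCR products of a sample were pooled and barcoded in a further PCR. Per the submitters' processing notes, BWA, SAMtools and the mouse build mm9 were used, and the sources used here give no version or filter. Per the file headers, the authors deposited a coverage count, an edited-read count and a level as a fraction for each site. The fraction equalled edited reads over coverage to rounding at all 195328 values compared, so levels were recomputed from the counts as percentages. Site positions are those of the files.

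In R 4.3.3, edgeR 4.0.16 (modelMatrixMeth, glmQLFit, glmQLFTest) was fitted to the edited and the unedited counts, two-sided, with 1 coefficient per group and all 20 libraries, and p-values adjusted over all sites tested. Exact permutation and Fisher tests used scipy 1.17.1. The alternatives were limma 3.58.1 on log2 odds with a pseudocount of 0.5, coverage minimums of 20 and 100, no minimum level, the compared groups alone, a replicate block, log odds in place of percentages for the permutation tests, and leaving out each library. The fit was tested on simulated data, for untreated ADAR2-null against wild-type cells only. Changes of 3 and of 5 log2 odds were put in. Every called change had the right direction. At sites edited in 10% or more of wild-type reads, median sizes ran from 3 to 3.36 and from 5.08 to 5.55. How many changes were called depended strongly on the spread simulated. With the spread estimated from the replicates, only part of the larger changes and none of the smaller were called. The smaller changes exceeded the ratios at the Ile site in p150-knockout and STAT2-null cells against wild type. The same held for every comparison of interferon with untreated cells. Those comparisons were not themselves simulated. A comparison that did not pass is therefore no sign of equal levels.

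The labels share replicate numbers. Same-numbered libraries had correlations of -0.161 to 0.145 between their deviations from group means over 45 pairs of groups, 2 of them over 0.1. No strong shift shared by replicate number was seen. That cannot tell whether same-numbered libraries were prepared together. No label names a batch, so none was tested. Named were all covered Cog3 sites, the 5 genes most like the Ile site (1 of them is not reported here), and from the other recoding and Golgi lists the nonsynonymous sites read in all libraries and the site with the greatest ADAR2-null difference; of those, Son and the further Flna and Blcap sites are counted in the lists. The members and lists were chosen with earlier results of these data known.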

Additional observations from a re-analysis of the deposited data

How the results depend on the processing

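At the Ile site 206 of 226 alternative fits over the 21 comparisons kept their direction and side of the threshold, 10 lost a call, 6 gained one and 4 changed sign, and 12 comparisons changed under none. Values are adjusted p. Untreated p150 knockout against wild type lost its call with no minimum level (0.454) and with the groups alone (0.101); without 1 library it ran from 0.0434 to 0.1. With the groups alone, ADAR2-null against wild type gave 0.0862 untreated and 0.19 with interferon, and ADAR2-null against ADAR1-null 0.0565 untreated and 0.0451 with interferon. Without 1 library, treated ADAR2-null against wild type ran from 0.00928 to 0.0904. With limma, treated p150 knockout gave 0.0351 against wild type and 0.0487 against ADAR1-null, and treated ADAR2-null 0.0468 against ADAR1-null. Treated p150 knockout against ADAR1-null gave 0.0382 with the replicate block and 0.0173 to 0.253 without 1 library. The block gave 0.0694 in the permutation test of each line, and changed no other call at the Ile site. Interferon over all lines ran from 0.0437 to 0.184 without 1 library. At the other Cog3 sites 327 of 374 fits kept both, 32 lost a call, 3 gained one and 12 changed sign. Signs changed only without 1 library, in results not called with all libraries, whose p then ran as follows. For interferon at the Ile site it was 0.869 to 0.993 in p150-knockout and 0.998 to 1 in STAT2-null cells. At the Glu site it was 0.0132 to 0.962 for interferon in p150-knockout cells, 0.0367 to 0.912 for treated p150 knockout against ADAR1-null, and 0.17 to 1 and 0.911 to 1 for the interferon responses of p150-knockout and ADAR2-null cells against wild type. At the 3′ lysine site it was 0.918 to 0.994 and 0.77 to 0.89 for treated ADAR2-null and STAT2-null against wild type, 0.609 to 0.833 for untreated ADAR2-null against ADAR1-null and 0.998 to 1 for interferon in STAT2-null cells. At the 5′ lysine site it was 0.709 to 0.954 for untreated ADAR1-null against wild type and 0.599 to 0.977 for interferon in wild type. Counts of called sites moved more: untreated ADAR2-null against wild type had 80 called, and 0 to 96 elsewhere; treated, 27 and 0 to 98. Untreated ADAR1-null had 190 (113 to 219), p150 knockout 171 (65 to 199) and STAT2-null 19 (0 to 25). Interferon in wild type had 502 (109 to 625). The causes were not tested. Reads per library limit an Ile level to intervals of 3.68 to 8.12 points, and each group has 2 libraries.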
